A study of Mus musculus with 24 samples.

Results

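The genes described here are the 78 mitochondrial ribosomal protein genes among the 55254 genes counted in sorted mouse hippocampal nuclei. They were chosen by symbol alone, as every gene named Mrps or Mrpl followed by a number, and 6 symbols ending in -ps, which mark pseudogenes, were left out. By symbol, 29 were named for the small subunit (Mrps) and 49 for the large subunit (Mrpl), although these names are historical, and the products of Mrps18a and Mrps30 are now placed in the large subunit. Nuclear RNA was sequenced from nuclei that carried the neuronal protein NeuN (NeuN+) and from nuclei without it (NeuN-), in 24 libraries that formed 8 groups of 3. All mice were 6-month-old males on the C57BL/6N background. Of the 4 genotypes, wild type (WT) served as control, Mutyh-/- and Ogg1-/- each lacked a DNA glycosylase, and mice without either were the double knockouts (DKO). Ogg1 removes oxidised guanine from DNA and Mutyh removes the adenine mispaired with it. The study describes its data in general as independent biological replicates and its nuclei as pooled from several animals of a genotype. The labels number the 3 libraries of a group without naming the pool behind each, so the p-values below measure the spread between these libraries, and how much of it is biological cannot be read from the labels.

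Mitochondria keep their own ribosome, which translates the few mRNAs of the mitochondrial genome into core subunits of the respiratory chain. Its RNAs come from mitochondrial DNA, whereas all of its proteins are encoded in the nucleus, made in the cytoplasm and imported. Some of these proteins descend from the bacterial ribosome and others are found only in mitochondria. Neurons depend heavily on respiration, and the mRNAs of these genes can be followed in sorted nuclei while those of the mitochondrial genome were not analysed here. Of the 78 genes, 44 have a bacterial homolog, 30 are specific to mitochondria and 4 (Mrpl55, Mrps36, Mrps18a and Mrps18b) were assigned to neither list.

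The promoters of 69 of the 78 genes could be read from RefSeq (GRCm38.p6), as 75 windows of 300 bases around a transcription start. These windows had a median GC content of 58.7% and a median of 21 CpG dinucleotides, against 52.7% and 7 for all 32851 RefSeq promoter windows. The core of the ETS factor motif, CCGGAAG on either strand, occurred in 34.7% of the members' windows and in 8.86% of all windows. The YY1 motif AAGATGGC, on either strand, occurred in 16% and 2.75%, the palindromic NRF1 motif in 4% and 0.971%, and the letters TATAAA in 6.67% and 13.6%. A match is a description of the letters and not evidence of binding. A few windows are shown 5′ to 3′, with ETS and YY1 matches in capitals. Mrps2 and Mrpl41 are shown because the comparisons with WT turn on them, Mrpl3 because it differed most clearly between cell types, and Mrps18a because it carries both motifs.
Mrps2, chr2:28467816-28468115 (+): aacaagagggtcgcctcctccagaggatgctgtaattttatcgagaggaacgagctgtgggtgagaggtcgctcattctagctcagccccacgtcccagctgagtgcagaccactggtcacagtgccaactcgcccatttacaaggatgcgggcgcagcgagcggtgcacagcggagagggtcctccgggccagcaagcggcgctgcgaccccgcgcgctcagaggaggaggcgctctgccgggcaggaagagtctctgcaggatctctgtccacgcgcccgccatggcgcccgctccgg
Mrpl41, chr2:24975049-24975348 (-): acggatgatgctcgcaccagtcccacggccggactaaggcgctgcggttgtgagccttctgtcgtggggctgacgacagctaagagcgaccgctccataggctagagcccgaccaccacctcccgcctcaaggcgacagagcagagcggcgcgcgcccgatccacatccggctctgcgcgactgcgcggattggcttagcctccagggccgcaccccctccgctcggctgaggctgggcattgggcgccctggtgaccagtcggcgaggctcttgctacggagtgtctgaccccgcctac
Mrpl3, chr9:105053018-105053317 (+): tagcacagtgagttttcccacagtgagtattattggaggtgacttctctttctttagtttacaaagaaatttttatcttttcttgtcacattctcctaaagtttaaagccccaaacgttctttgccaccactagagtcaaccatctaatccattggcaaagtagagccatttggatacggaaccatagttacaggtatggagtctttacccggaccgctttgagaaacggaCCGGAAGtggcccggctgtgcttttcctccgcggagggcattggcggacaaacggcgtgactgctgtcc
Mrps18a, chr17:46110754-46111053 (+): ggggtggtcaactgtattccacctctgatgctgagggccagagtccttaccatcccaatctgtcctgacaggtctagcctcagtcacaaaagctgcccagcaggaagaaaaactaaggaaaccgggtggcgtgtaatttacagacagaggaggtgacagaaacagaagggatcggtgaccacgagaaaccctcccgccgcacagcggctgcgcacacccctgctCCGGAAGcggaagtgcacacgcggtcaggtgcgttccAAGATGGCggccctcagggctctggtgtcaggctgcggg
The windows of Mrps2 and Mrpl41 held none of the motifs searched, whereas Mrpl3 held the ETS core and Mrps18a held the ETS core and the YY1 letters.

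The 78 genes lay on 17 chromosomes and were compact, with a median span of 7.90 kb against 17.7 kb for protein-coding genes (GENCODE vM21, GRCm38). A protein-coding gene started on the opposite strand between 1000 bases upstream and 200 bases inside the start of 23 members (29.5%), compared with 7.88% of protein-coding genes. Mrpl36 and the complex I gene Ndufs6, and Mrpl32 and the proteasome gene Psma2, were such pairs. Another gene overlapped 42 members (53.8%, against 46.4% of protein-coding genes), and reads of overlapping genes may not be fully separable in these counts. None of the members lay within 10 Mb of Ogg1, whereas Mrps15 and Mrpl37 lay 9.23 and 9.74 Mb from Mutyh.

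Libraries held 56563586 to 96192142 counts. Levels in CPM are counts relative to the library's total count times its TMM factor, so totals on this scale differ between libraries. The TMM factors were 0.897 to 0.952 in NeuN+ and 1.04 to 1.13 in NeuN- libraries. Summed neuron marker levels were 5977 to 6935 CPM in NeuN+ and 392 to 560 CPM in NeuN- libraries. Oligodendrocyte markers were 117 to 140 CPM and 4501 to 6765 CPM, so the sorted fractions matched their labels. Choroid plexus markers, listed after the data had been seen, ranged from 13.98 to 221 CPM among NeuN- libraries, and their part in the results was not tested. The RNA of the targeted genes did not fall with its label. Ogg1 differed from WT by 0.05 (log2) in NeuN+ Ogg1-/- libraries (adjusted p = 0.916, edgeR), and Mutyh was higher in the libraries labelled Mutyh-/- by 3.15 in NeuN+ and 1.85 in NeuN- (adjusted p = 2.34e-08 and 4.22e-05, edgeR) and in those labelled DKO by 2.99 and 1.61. Gene-level counts do not show whether a deleted stretch was absent, so they do not check these labels. Per the sample labels, NeuN+ and NeuN- libraries ran on different lanes, and the effects of lane and of cell type cannot be told apart.

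All 78 genes passed the filter on low counts in every fit. Their counts ranged from 24 to 10620 per library, and the lowest median count was that of Mrpl34 at 60.5. Levels per length, in CPM per kilobase of exon averaged over the 24 libraries, spanned 98.9-fold. Mrps6, a homolog of bacterial S6, was highest at 56.0, followed by Mrps28 at 48.7, Mrps27 at 14.7, Mrps9 at 9.98 and Mrps21 at 8.88. The lowest were Mrps30 at 0.858, Mrpl51 at 0.787, Mrpl17 at 0.784, Mrpl23 at 0.728 and Mrpl32 at 0.566, and the median of the family was 2.74. Mrps6, Mrps28, Mrps27 and Mrps9 span 53958, 121773, 70777 and 54451 bases, against a family median of 7.90 kb. Whether gene span or unspliced nuclear RNA contributes to these levels was not tested. The ranges over libraries of Mrps6 (40.4 to 82.3) and Mrps28 (32.8 to 60.7) overlapped, and that of Mrps28 lay above that of Mrps27 (11.2 to 18.5). Mrps6 shares its locus with Slc5a3, a myo-inositol transporter gene on the same strand, and the ratio of their CPM values stayed between 1.30 and 1.42 in all 24 libraries, so the level of Mrps6 may not be separable from that of Slc5a3.

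The first question was whether loss of either glycosylase changed the expression of these genes. No member was a differentially expressed gene (DEG), which required a log2 fold change beyond 0.5 in either direction at an adjusted p under 0.05, in any knockout in either cell type. DEGs made up 0.428% of all genes tested for Mutyh-/-, 0.574% for Ogg1-/- and 0.302% for DKO in NeuN+, and 0.273%, 0.229% and 0.116% in NeuN-, so few members would be called at those rates. DESeq2 also called 0 members in each of these comparisons. In NeuN+, an unadjusted p under 0.05 was reached by 9 members in Mutyh-/- (3 higher, 6 lower), 13 in Ogg1-/- (all lower) and 8 in DKO (all lower), where the shares among all genes were 18.7%, 12.3% and 13.5% in either direction and 9.21%, 7.33% and 7.51% lower. In NeuN-, 5 members (2 higher, 3 lower), 4 (all lower) and 5 (all lower) did so, against 13.7%, 11.8% and 12.4% of all genes in either direction and 6.90%, 6.08% and 6.31% lower. The precision was sufficient to bound most members. The 95% interval of the log2 fold change lay within 0.5 of 0 for 70, 68 and 70 of the 78 in NeuN+ and for 73, 73 and 72 in NeuN-.

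Mrps2, a small subunit protein with a bacterial homolog, had the smallest adjusted p of the family. The gene lies at chr2:28468066-28471178 on the plus strand and overlaps no annotated gene. In NeuN+ nuclei its TMM-scaled levels were 5.11, 4.65 and 4.66 CPM in the WT libraries. They were 3.92, 3.97 and 3.36 CPM in Mutyh-/-, 3.44, 3.42 and 3.63 CPM in Ogg1-/-, and 3.36, 3.84 and 3.73 CPM in DKO. Every knockout library lay below every WT library. In NeuN+ the knockout libraries lay entirely below WT for 9 members (Mutyh-/-), 15 members (Ogg1-/-) and 16 members (DKO), and for 10.8%, 10.2% and 9.49% of all genes. The log2 fold change of Mrps2 was -0.47 in Ogg1-/- (SE 0.096, adjusted p = 0.0296, edgeR), which passed the test but not the limit on fold change, at a rate of 1.10% among all genes. Leaving out any 1 of the 6 libraries ended this result, with adjusted p-values from 0.0728 to 0.158. For DKO the log2 fold change was -0.41 (adjusted p = 0.0822, edgeR), and for Mutyh-/- it was -0.36 (adjusted p = 0.0885, edgeR). The 3 comparisons share the WT libraries.

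In NeuN- nuclei Mrps2 stood at 3.67, 3.27 and 3.65 CPM in WT and at 3.06, 3.05 and 3.44 CPM in Ogg1-/-, and the groups overlapped. The difference between the Ogg1-/- effects in the 2 cell types was -0.31 (SE 0.12, adjusted p = 0.625, edgeR), so the effect was not shown to differ between NeuN+ and NeuN-. Of 35 other genes tested within 1 Mb of Mrps2, none had an adjusted p under 0.05 in Ogg1-/- NeuN+ by edgeR, against 1.10% of all genes. An unadjusted p under 0.05 was reached by 7 of them (20%, against 12.3% of all genes). At these rates so few genes say little about the neighbourhood.

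**Figure D1:**
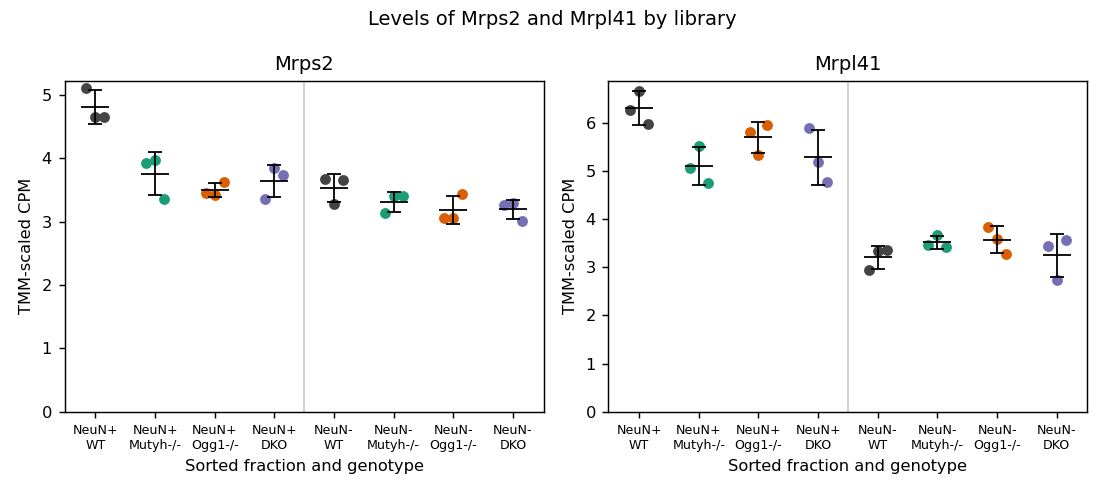
Levels of Mrps2 (left) and Mrpl41 (right) in TMM-scaled CPM on the vertical axis, for each sorted fraction and genotype on the horizontal axis. Points are libraries (3 per group), and bars are the mean and SD. For Mrps2 the 3 NeuN+ WT libraries (4.65 to 5.11) lie above all NeuN+ knockout libraries, and Mrpl41 is higher in NeuN+ than in NeuN- libraries of every genotype.

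Mrpl41, a mitochondrion-specific protein of the large subunit, followed in the same direction without passing the test. Its NeuN+ levels were 6.26, 6.68 and 5.98 CPM in WT and 5.06, 5.52 and 4.74 CPM in Mutyh-/-, and these groups did not overlap. The log2 fold change was -0.30 (SE 0.097, adjusted p = 0.129, edgeR) in Mutyh-/- and -0.27 (SE 0.096, adjusted p = 0.234, edgeR) in DKO. Mrpl48, of the large subunit, had a log2 fold change of -0.18 in Ogg1-/- NeuN+ (adjusted p = 0.151, edgeR). On the other side of 0, the members with the smallest p were Mrpl24 and Mrps27, a pentatricopeptide repeat protein, at 0.18 and 0.16 in Mutyh-/- NeuN+ (adjusted p = 0.153 and 0.176, edgeR), and Mrpl33 at 0.11 in Ogg1-/- NeuN+. In NeuN- nuclei the corresponding members were Mrpl3, Mrpl16, Mrps27 and Mrps6 in Mutyh-/-, Mrpl16, Mrpl43, Mrps11 and Mrps27 in Ogg1-/-, and Mrpl57, Mrpl48, Mrpl15 and Mrps33 in DKO, with adjusted p-values from 0.276 to 0.588 (edgeR). The largest value among them was that of Mrps6 in Mutyh-/- at 0.50 (SE 0.20), and Mrpl57 in DKO stood at -0.29 (SE 0.10).

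Seen as a family, the median log2 fold change in NeuN+ was -0.05 for Mutyh-/-, -0.09 for Ogg1-/- and -0.08 for DKO, and 55, 60 and 53 of the 78 members lay below 0. The medians of all genes tested were -0.01, 0.01 and 0.00 (log2). In NeuN- the members' medians were -0.02, -0.01 and -0.04, with 49, 44 and 51 members below 0. There the medians of all genes tested were -0.0052, 0.00085 and 0.0066. The SD between replicate libraries of the members' median was 0.04 in NeuN+ and 0.02 in NeuN-, so these shifts were at most a few times that spread. Relative to each member's mean over the 24 libraries, the members' median was 0.03, 0.12 and 0.10 (log2) in the NeuN+ WT libraries. The NeuN+ knockout libraries ran from -0.01 to 0.07, so WT replicate 1 lay among them. All members come from the same libraries, so the counts below 0 are not independent results. In Ogg1-/- NeuN+, the 30 mitochondrion-specific members had a median of -0.11 and the 44 with a bacterial homolog -0.06, and the genes named Mrpl and Mrps stood at -0.09 and -0.07. Without NeuN- WT replicate 2 the Ogg1-/- median in NeuN- turned to 0.003, that of Mutyh-/- went to -0.007 and that of DKO to -0.03. In NeuN- without DKO replicate 3 the DKO median was -0.008, and without Mutyh-/- replicate 3 the Mutyh-/- median was -0.01. Without NeuN+ WT replicate 2 the NeuN+ medians went to -0.02 for Mutyh-/-, -0.05 for Ogg1-/- and -0.04 for DKO, and without its own replicate 3 that of Mutyh-/- went to -0.02 and that of DKO to -0.05.

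**Figure D2:**
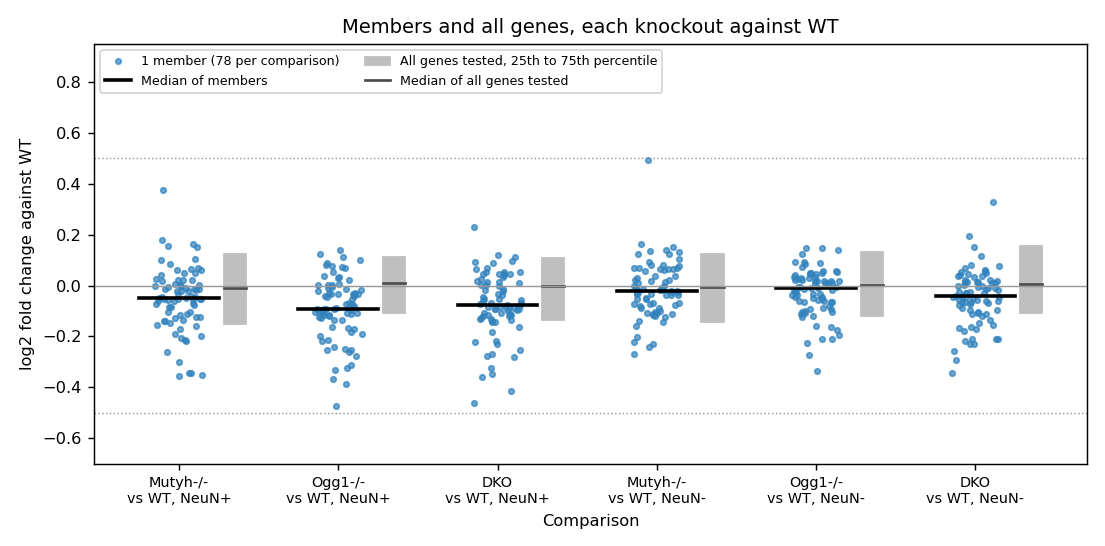
Log2 fold change against WT (vertical axis) of the 78 members in each of the 6 comparisons (horizontal axis). Blue points are members, black lines their medians, and grey boxes the 25th to 75th percentile of all genes tested with their median; dotted lines mark 0.5. All members lie within 0.5 of 0, and the medians in NeuN+ are -0.05, -0.09 and -0.08.

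Between the knockouts themselves no member was called in any of the 6 comparisons, where 0.216% (DKO against Ogg1-/-), 0.139% (DKO against Mutyh-/-) and 0.485% (Ogg1-/- against Mutyh-/-) of all genes were called in NeuN+ and 0.132%, 0.122% and 0.521% in NeuN-. DESeq2 called 0 members as well, and 0, 1 and 6 members in NeuN+ and 1, 3 and 1 in NeuN- had an unadjusted p under 0.05, against 4.26%, 6.86%, 12.7%, 4.34%, 11.0% and 11.5% of all genes. The difference of each knockout effect between NeuN+ and NeuN- was also tested. No member passed an adjusted p of 0.05 by edgeR or DESeq2 (0.0209%, 0.0537% and 0.0567% of all genes for Mutyh-/-, Ogg1-/- and DKO by edgeR), and 4, 2 and 3 members had an unadjusted p under 0.05 (8.58%, 7.09% and 9.40% of all genes). Mrpl41 in Mutyh-/- had the largest of these differences, at -0.44 (SE 0.15, adjusted p = 0.367, edgeR).

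The second question was how the family differs between neuronal and non-neuronal nuclei. Of the 78 members, 47 differed between WT NeuN+ and WT NeuN- at an adjusted p under 0.05 (edgeR), 32 higher and 15 lower in NeuN+, where 72.4% of all genes did so (36.1% higher, 36.3% lower). None differed by more than 1 on the log2 scale, the limit set for this comparison, whereas 42.9% of all genes did. DESeq2 also called 0 members at that limit, and an unadjusted p under 0.05 was reached by 51 (74.3% of all genes). The members' median difference was 0.14 with TMM factors and -0.09 with total counts alone, so the direction of the family as a whole depends on the scaling. Relative to the median of all genes it was 0.16 under both scalings. The split into 32 higher and 15 lower was counted with TMM factors. Fewer cells of a type and less RNA per cell cannot be told apart in such bulk libraries.

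In WT, 11 members differed by more than 0.5, a limit applied after their values had been seen and passed by 58.9% of all genes. All 11 had the same direction and passed the test at an adjusted p under 0.05 in all 3 knockout genotypes, where some differences were smaller than 0.5, such as 0.24 for Mrpl11 in Ogg1-/- and 0.34 for Mrpl38 in Mutyh-/-. Higher in NeuN+ were Mrpl41 (0.97), Mrpl3 (0.87), Mrpl38 (0.61), Mrps26 (0.60), Mrpl11 (0.53) and Mrpl1 (0.52). Lower were Mrpl33 (-0.79), Mrpl24 (-0.74), Mrpl18 (-0.69), Mrps28 (-0.57) and Mrps7 (-0.50). Both lists mixed proteins of the large and the small subunit. In 7 alternative fits, scaling by total counts among them, all 11 kept their direction and passed the test. The lowest differences of Mrpl38 (0.38), Mrps26 (0.37), Mrpl11 (0.30) and Mrpl1 (0.28) fell below 0.5, so the list depends on the processing. The other members stayed beyond 0.5, and Mrpl33 reached -1.02.

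Mrpl3, a large subunit protein near the catalytic centre of the ribosome, had 51.3, 50.2 and 48.5 CPM in WT NeuN+ and 29.2, 26.7 and 26.1 CPM in WT NeuN- libraries. These groups did not overlap, which between the WT fractions held for 76.1% of all genes. The log2 difference was 0.87 (SE 0.052, adjusted p = 6.71e-13, edgeR). In the knockouts it was 0.94, 0.90 and 1.00 for Mutyh-/-, Ogg1-/- and DKO. Mrpl41 stood at 2.94, 3.33 and 3.37 CPM in WT NeuN-, below all WT NeuN+ libraries given above. Its difference of 0.97 in WT was 0.54, 0.67 and 0.70 in Mutyh-/-, Ogg1-/- and DKO.

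Mrpl33 showed the opposite order, with 26.7, 28.1 and 28.8 CPM in WT NeuN+ and 49.0, 48.4 and 47.3 CPM in WT NeuN-. Mrpl18, a relative of the bacterial protein that binds 5S rRNA, had 5.11, 5.38 and 5.50 CPM against 9.24, 7.70 and 8.88 CPM, and its difference of -0.69 in WT was -0.95, -0.98 and -1.04 in Mutyh-/-, Ogg1-/- and DKO. Beyond a limit of 1, which 44.4% of all genes passed in DKO, lay Mrpl18 and Mrpl3 in DKO. The WT fractions did not overlap for Mrpl33 or Mrpl18, nor did they for 76.1% of all genes. Mrpl33 overlaps Rbks, Mrpl18 overlaps Tcp1 and Mrpl24 overlaps Rrnad1, each on the opposite strand. Mrpl3, Mrps7, Mrps26 and Mrps28 also overlap genes on the opposite strand. On the same strand, Mrpl33 overlaps Gm43809, Mrpl3 overlaps Gm38077 and Mrps28 overlaps Gm15466. The part of these overlaps in the differences was not tested. Of the 47 members past the test in WT, 46 had the same direction in all 3 knockouts, and 31 also passed the test there (22 higher and 9 lower in NeuN+). Among all genes, 62.0% passed the test in the same direction in all 4 genotypes (30.7% higher, 31.3% lower). Mrps23, at 0.01 in WT, was lower in NeuN+ in Mutyh-/- at -0.17 (adjusted p = 0.0325, edgeR), the only member past the test in a knockout in the direction opposite to WT.

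**Figure D3:**
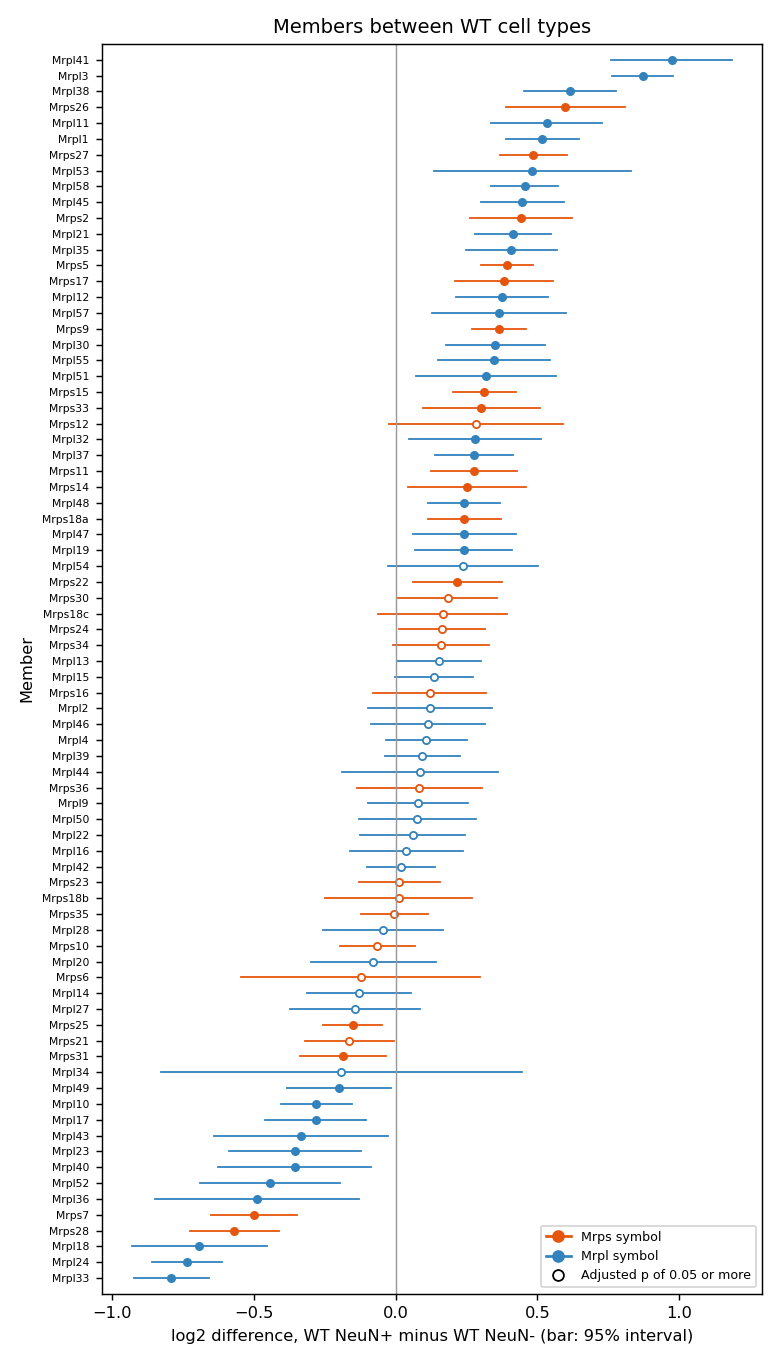
Log2 difference between WT NeuN+ and WT NeuN- (horizontal axis) of the 78 members, ordered by value (vertical axis), with 95% intervals as bars. Orange marks Mrps and blue Mrpl symbols, and open points did not reach an adjusted p under 0.05; values run from -0.79 (Mrpl33) to 0.97 (Mrpl41), and both kinds of symbol occur at both ends.

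The 3 paralogs of bacterial S18 sit at different places of the mitochondrial ribosome. Mrps18a had the highest level per exon length at 5.28 CPM per kilobase, followed by Mrps18c at 3.11 and Mrps18b at 2.06. Their genes span 17925, 5845 and 6011 bases, and whether span contributes was not tested. In WT, Mrps18a was higher in NeuN+ nuclei by 0.24 (SE 0.061, adjusted p = 0.00128, edgeR), with 18.9, 22.0 and 21.3 CPM against 17.4, 17.0 and 18.2 CPM. These values are TMM-scaled, and a difference of this size may depend on the scaling. With total counts alone the members' median went from 0.14 to -0.09. Mrps18b and Mrps18c differed by 0.01 and 0.17 (adjusted p = 0.947 and 0.179, edgeR). Mrps36, whose protein is now regarded as a subunit of the alpha-ketoglutarate dehydrogenase complex, differed by 0.08 (adjusted p = 0.491, edgeR). None of these 4 genes passed the test in any knockout against WT.

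Mrps6 varied widely between libraries of a genotype. In NeuN+ it had 62.0, 67.7 and 82.2 CPM in WT, 99.3, 100.2 and 74.4 CPM in Mutyh-/-, 87.7, 78.7 and 70.3 CPM in Ogg1-/- and 62.5, 80.8 and 108 CPM in DKO. In NeuN- it had 69.2, 71.8 and 89.8 CPM in WT, 126, 120 and 81.2 CPM in Mutyh-/-, 86.1, 81.7 and 69.4 CPM in Ogg1-/- and 69.2, 97.5 and 124 CPM in DKO. The libraries high in NeuN+ were those high in NeuN-, and the order of the 3 replicate numbers was identical in 3 of the 4 genotypes, which held for 4 of the 78 members. Slc5a3 moved with it, and its log2 fold change in Mutyh-/- was 0.38 in NeuN+ and 0.52 in NeuN-, beside 0.37 and 0.50 for Mrps6.

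**Figure D4:**
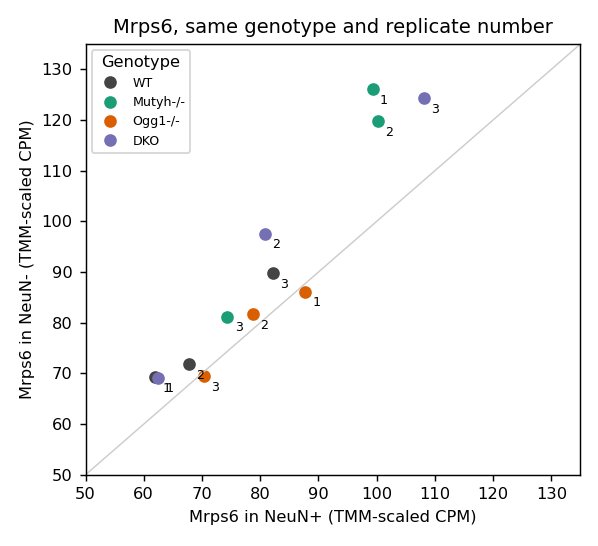
Mrps6 levels in NeuN+ (horizontal axis) and NeuN- (vertical axis) libraries matched by genotype and replicate number, in TMM-scaled CPM; numbers beside points are replicate numbers and the line marks equality. The 12 points rise together from 62.0 and 69.2 in the lowest pair to 108 and 124 in DKO replicate 3.

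The rest of the machinery was counted from lists of related genes. Of 5 mitoribosomal proteins with other symbols, 25 assembly factors, 14 translation factors and 20 mitochondrial tRNA synthetases, none was a DEG in any knockout. In Ogg1-/- NeuN+, C1qbp, a matrix protein needed for mitochondrial translation, fell by 0.46 (adjusted p = 0.0234, edgeR) and Lars2, the mitochondrial leucyl-tRNA synthetase, fell by 0.31 (adjusted p = 0.0311, edgeR), where 1.10% of all genes passed the test. Lars2 also fell by 0.39 in Ogg1-/- NeuN- (adjusted p = 0.0132, edgeR), where 0.342% of all genes passed. Unlike Mrps2, C1qbp and Lars2 were not rechecked in the alternative fits or with a library left out. Between WT cell types 4 of these genes were lower in NeuN+ by more than 1 on the log2 scale and none was higher by that much, whereas 21.6% of all genes were lower and 21.3% higher. They were the assembly factors Mterf4 (-1.67), Mettl15 (-1.15) and Mpv17l2 (-1.13) and the ribosome recycling factor Gfm2 (-1.47).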

How the data were processed

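Hippocampal nuclei were sorted by NeuN, and nuclear RNA was sequenced as stranded total RNA libraries. According to the submitters' processing notes and the study's methods, the authors aligned paired reads to GRCm38 with HISAT2 (2.1.0) and deposited raw gene counts made with featureCounts. Settings for strand, overlapping genes and reads with several matches are not given in the sources used here. Counts were tested with edgeR (4.0.16) quasi-likelihood fits in R (4.3.3), with TMM factors, filterByExpr and Benjamini-Hochberg adjustment over all genes tested: 30132 in NeuN+ (12 libraries), 31863 in NeuN- (12) and 33523 over all 24. DESeq2 (1.42.0) was an alternative. Intervals are 95%. Positions came from GENCODE vM21 (78 of 78 members matched by symbol) and promoters from RefSeq. Promoters of Mrpl38, Mrpl54, Mrps35, Mrpl4, Mrpl15, Mrpl13, Mrps28, Mrpl19 and Mrps34 were not analysed here.

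The members and lists were chosen with earlier results of these data known. Members named were those called, the 2 with the smallest p per direction in each comparison with WT, the 5 highest and 5 lowest per length, the Mrps18 paralogs, Mrps36 and those within 10 Mb of Ogg1 or Mutyh. The choroid plexus list and the cell-type comparisons within knockouts were added after seeing the data. On simulated counts for Ogg1-/- against WT, 71.6% of genes changed by 0.5 (log2) and 97.1% of those changed by 1 were recovered in NeuN+ (29787 genes), and 53.7% and 88.6% in NeuN- (31447 genes). Recovery meant an adjusted p under 0.05 by edgeR without the limit on fold change, and the changed genes had a mean above 1 CPM. These shares therefore do not hold for the DEG rule, which also requires a change beyond 0.5. Alternatives covered the filter, scaling, test, replicate block, libraries in the fit, threshold and leaving out each library.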

Additional observations from a re-analysis of the deposited data

How the results depend on the processing

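None of the named members that were rechecked reversed its direction. Between cell types only the 11 members beyond 0.5 were rechecked gene by gene. The medians carry no test. That between WT cell types changed sign with total counts, and that of Ogg1-/- NeuN- did so without NeuN- WT replicate 2. With no limit on the fold change, 1 member (Mrps2) was called in Ogg1-/- NeuN+. With total counts in place of TMM, the members' median was -0.0898 in Mutyh-/- NeuN+, -0.0604 in Mutyh-/- NeuN- and -0.0897 between WT cell types, and 1 member was called between WT cell types. With TMM factors, a limit of 0.5 called 11 members there. Within knockouts, the cell-type median was 0.096 in Mutyh-/- and 0.098 in Ogg1-/-, and 2 members (Mrpl3 and Mrpl18) were called in DKO. The cause of these changes was not tested.

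Leaving out 1 library gave medians from -0.0901 to -0.0350 for DKO in NeuN+ (highest without WT replicate 2), from -0.0611 to -0.0182 for Mutyh-/- and from -0.0973 to -0.0539 for Ogg1-/- there, and from -0.0571 to -0.00777 for DKO in NeuN- (highest without DKO replicate 3). Between WT cell types the median ran from 0.12 to 0.18 and 0 to 1 members were called, with 1 without NeuN+ or NeuN- WT replicate 3. For Mrps2 in Ogg1-/- NeuN+, the log2 fold change ran from -0.51 to -0.43 and the adjusted p from 0.0728 to 0.158, whereas all 8 other alternatives kept it past 0.05 (0.00166 to 0.0341). Mrps2 in DKO passed with total counts (0.0485), DESeq2 (0.0233) and the likelihood ratio test (0.0145), and in Mutyh-/- with the last (0.0387).

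Libraries of both fractions that share genotype and number deviated together in 10 of 12 pairs (r over 0.1, range -0.0003 to 0.356). Of these 12, 9 correlated best with their own number, a hint of pairing from the data that the labels do not state. With the same genotype and another number, 2 of 24 pairs exceeded 0.1. Within a fraction, libraries sharing a number but not a genotype did so in 6 of 18 pairs (NeuN+) and 8 of 18 (NeuN-). The study's methods state that both fractions were collected in the sort, but the labels do not say that equal numbers share a pool. The main fits therefore did not use the numbers as pairs, although such pairing may exist. With the replicate block (genotype and number together where both fractions entered the fit) 0 members were called in each comparison, 49 passed an adjusted p of 0.05 between WT cell types, and Mrps2 in Ogg1-/- NeuN+ had an adjusted p of 0.0341. Depth limits Mrpl34 most, with as few as 24 counts in a library.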
